A study of Mus musculus with 4 samples.

Results

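Insulin receptor to Akt signalling was followed through 10 genes, the rows of the count table whose symbol is Insr, Igf1r, Irs1, Irs2, Grb10, Pik3r1, Pik3r2, Pik3r3, Akt1 or Akt2. All 10 were found among the 23282 features of the table, and all 10 passed the filter on low counts that left 13285 genes to test. The cells were C2C12 myotubes, the multinucleated muscle cells into which this mouse myoblast line fuses, and the labels give the line as female. Both groups had been deprived of steroids, and for 2 h they received either vehicle, whose solvent the labels do not name, or 1 µM dexamethasone, a synthetic agonist of the glucocorticoid receptor. Nuclei were isolated and lysed, and the RNA left on the chromatin, which is rich in transcripts still being made, was sequenced in 2 libraries per group, 4 in all. Nothing in the labels says that the libraries came from separate cultures, so p-values measure the spread between these libraries of 1 cell line, which may be technical.

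Insulin and the insulin-like growth factors bind receptor tyrosine kinases, which phosphorylate the insulin receptor substrates. These dock phosphoinositide 3-kinase (PI3K), an enzyme made of a catalytic and a regulatory subunit, and its lipid product brings the kinase Akt to the membrane. In muscle this route drives glucose uptake and protein synthesis and holds FoxO transcription factors out of the nucleus, and glucocorticoids are known to oppose insulin action in this tissue.

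The vehicle libraries held 19631435 and 35116830 counts (replicates 1 and 2) and the dexamethasone libraries 32463331 and 88596296. Levels are given as CPM, counts per 1000000 counts of the library after scaling by TMM, which corrects for differences in library make-up. All 10 myotube markers exceeded 1 CPM in every library, and their summed level was 129357 and 45635 CPM with vehicle against 124665 and 44546 CPM with dexamethasone. The sum therefore separated replicate 1 from replicate 2 in both groups, and most of it was Ttn, the titin gene. Markers of undifferentiated or cycling myoblasts summed to 53.0 and 56.9 CPM with vehicle and 38.3 and 44.3 CPM with dexamethasone, and the lower sums came from Pax7 alone, which had 32.0 and 39.0 against 17.9 and 22.9 CPM. The log2 fold changes of the other 4, Myf5, Ccnb1, Top2a and Mki67, were between 0.068 and 0.30. Endothelial markers summed to between 1.00 and 1.45 CPM, immune markers to between 2.95 and 3.94 CPM (mostly Cd68), adipocyte markers to at most 0.211 CPM and hepatocyte markers to at most 0.0667 CPM, with Cidec and Alb at 0 in every library. Fkbp5, a classic glucocorticoid target, had 21.4 and 21.6 CPM with vehicle and 1018 and 696 CPM with dexamethasone (edgeR quasi-likelihood test, adjusted p 0.0429).

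Of the 10 genes, 4 of those between the receptors and Akt had the clearest differences, though none passed the test across all genes. Of the substrates, Irs1 was 2.31-fold lower and Irs2 2.07-fold higher after 2 h of dexamethasone. Of the PI3K regulatory subunits, Pik3r1 was 1.81-fold higher and Pik3r3 1.97-fold lower. The libraries of the 2 groups did not overlap for these 4 genes. In edgeR's quasi-likelihood test no member reached the adjusted p of 0.05, which 0.0376% of the genes tested did (5 genes, all higher). At an unadjusted p under 0.05 stood Irs2 and Pik3r1 as higher, against 4.09% of all genes, and Irs1 and Pik3r3 as lower, against 1.69% (4 of 10 members in either direction, against 5.78%). DESeq2's Wald test called the same 4, and over all genes it called 236 higher and 53 lower. The groups were apart, with no overlap, in 5 members against 27.9% of all genes, with dexamethasone the higher group in 3 (15.0% of all genes) and the lower in 2 (12.9%). They were apart with a log2 fold change of at least 0.5 in size in 4 members, against 9.18% of all genes. The median log2 fold change of the 10 was 0.038 and that of all tested genes -0.0016, but the median size regardless of sign was 0.55 against 0.13. These shares describe members that were chosen with earlier results of the same libraries known.

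**Figure D1:**
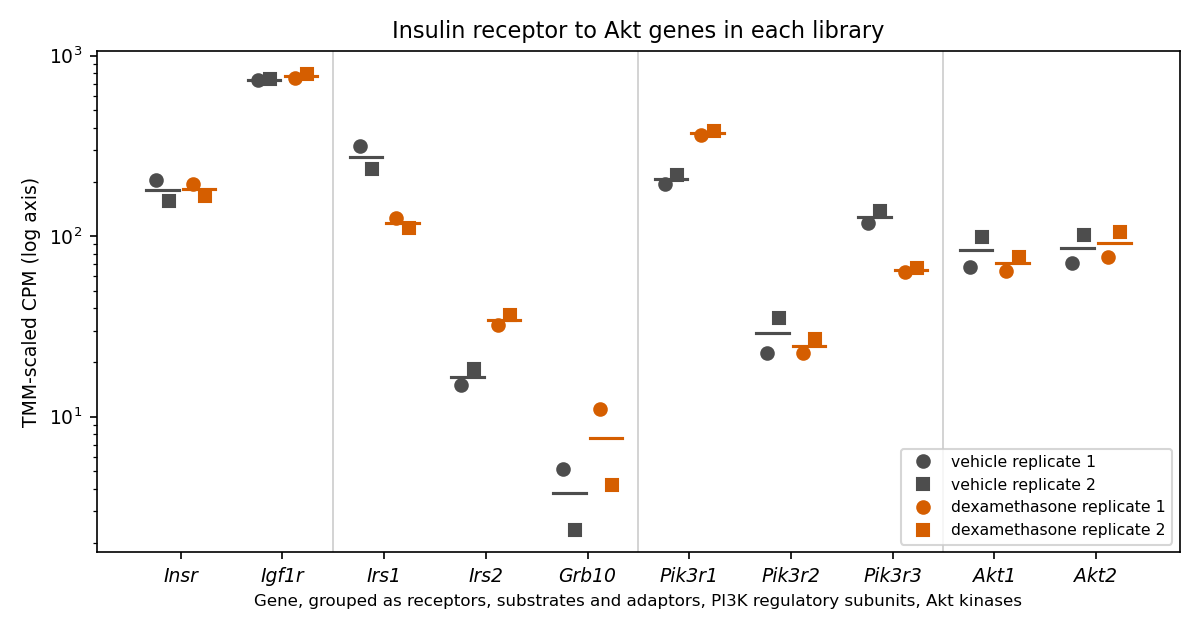
TMM-scaled CPM (log axis) of the 10 genes in each of the 4 libraries, circles for replicate 1 and squares for replicate 2, with a short line at each group's mean. Irs1 and Pik3r3 lie lower and Irs2 and Pik3r1 higher in both dexamethasone libraries, while the groups of Insr, Grb10, Pik3r2, Akt1 and Akt2 overlap.

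The receptors come first in the route. Insr (ENSMUSG00000005534), the insulin receptor, had 204 and 157 CPM with vehicle and 195 and 168 CPM with dexamethasone. In both groups replicate 1 was the higher library, and the dexamethasone values lay between the vehicle values. Its log2 fold change was 0.0052 (SE 0.183), with a 95% interval of -0.48 to 0.49, so a change within that range is not excluded. The interval is not a limit of detection, since larger differences of other members also went uncalled. Igf1r (ENSMUSG00000005533), the receptor for insulin-like growth factor I, had 731 and 741 CPM with vehicle and 750 and 797 CPM with dexamethasone. It was the steadiest of the 10. Dexamethasone was the higher group with no overlap, by a log2 fold change of only 0.071 (SE 0.129, 95% interval -0.27 to 0.41; edgeR unadjusted p 0.609).

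The insulin receptor substrates carry the signal from the receptors to PI3K, and their genes differed in opposite directions. Irs1 (ENSMUSG00000055980), the main substrate in insulin-stimulated muscle, had 5865 and 8938 counts with vehicle and 3797 and 10365 with dexamethasone, or 315 and 235 against 127 and 111 CPM. Both dexamethasone libraries were at about the same level, well below the lower vehicle library. The group means were 275 ± 55.9 and 119 ± 11.1 CPM (SD, n = 2 each). The log2 fold change was -1.21 (SE 0.193, 95% interval -1.72 to -0.70), with an edgeR unadjusted p of 0.0021 and an adjusted p of 0.201. The annotation places Gm9747 on the opposite strand, for which no count is used here. Without vehicle replicate 2, Irs1 passed the threshold at a log2 fold change of -1.40 (edgeR adjusted p 0.0261), in a fit that assumes that the lone vehicle library varies like the dexamethasone ones.

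Irs2 (ENSMUSG00000038894), the substrate best known for its part in liver and beta cells, was far less abundant, with 279 and 694 counts under vehicle and 972 and 3416 under dexamethasone. In CPM these were 15.0 and 18.3 against 32.4 and 36.6 CPM, with means of 16.6 ± 2.35 and 34.5 ± 2.94 CPM (SD, n = 2 each). The lower dexamethasone library was well above the higher vehicle library. The log2 fold change was 1.05 (SE 0.176, 95% interval 0.59 to 1.52; edgeR unadjusted p 0.00258, adjusted p 0.213). On the opposite strand the annotation places 9530052E02Rik over Irs2, which had 46 and 118 counts with vehicle and 74 and 334 with dexamethasone. These raw counts follow the library totals, and its log2 fold change after scaling was 0.12 (edgeR unadjusted p 0.729). Because the strand setting of the counting is not given in the sources used here, reads of that transcript and of Irs2 cannot be told apart.

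The 300-base RefSeq promoter windows of both substrate genes (GRCm38.p6, 250 bases before to 50 after the annotated start, minus strand of each chromosome) are shown because the 2 genes differed in opposite directions while their windows share a stretch of sequence. Irs1 is at chr1:82291390-82291689 and Irs2 at chr8:11008880-11009179. Capitals mark the 2 longest runs common to both windows, GTCACGTGTT and TGTTTTGCTC, each of 10 bases, which overlap each other in both windows.
Irs1: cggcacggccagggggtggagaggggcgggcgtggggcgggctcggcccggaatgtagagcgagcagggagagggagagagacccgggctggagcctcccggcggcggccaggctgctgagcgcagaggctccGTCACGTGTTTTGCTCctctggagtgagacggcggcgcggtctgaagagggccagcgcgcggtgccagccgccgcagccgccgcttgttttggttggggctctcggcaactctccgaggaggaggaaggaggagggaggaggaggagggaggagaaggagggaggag
Irs2: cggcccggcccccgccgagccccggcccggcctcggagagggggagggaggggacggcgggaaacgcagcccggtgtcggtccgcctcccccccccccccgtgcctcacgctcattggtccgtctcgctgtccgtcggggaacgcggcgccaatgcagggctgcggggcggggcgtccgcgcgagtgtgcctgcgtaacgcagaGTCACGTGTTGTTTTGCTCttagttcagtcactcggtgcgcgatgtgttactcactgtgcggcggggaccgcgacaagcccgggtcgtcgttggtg
The first run begins 117 bases before the start of Irs1 and 46 bases before that of Irs2, and it contains CACGTG, the core E-box to which helix-loop-helix factors bind. The end of neither window was found in a GENCODE M21 transcript of its gene, so these distances rest on the RefSeq start alone. Either run alone, on either strand, was present in 0.0761% of the 32851 mouse promoter windows, and only the windows of Irs1 and Irs2 held both. These runs were looked for after the sequences had been seen and were picked as the longest that these 2 windows share. Their rarity follows in part from that choice, and how long a run other pairs of windows share was not computed. CACGTG itself, which reads the same on both strands, was in 7.15% of windows. The shared stretch stands beside log2 fold changes of opposite sign, and its part in either was not tested.

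Motifs of the glucocorticoid receptor were searched on both strands in the 17 windows that RefSeq gives for 9 of the members. The full palindromic glucocorticoid response element, 2 inverted half-sites with 3 free bases between them, was in none of the 17 (0.00913% of all windows). Nor was a looser form that the full element also satisfies (0.475%), nor the half-site AGAACA, which lies within the full element (19%). The FoxO motif GTAAACA occurred in 1 of the 17, a window of Akt1, 161 bases before the start on the antisense strand (3.65% of all windows). That these letters are missing from a window says nothing of binding elsewhere.

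Grb10 (ENSMUSG00000020176) encodes an adaptor that binds both receptors and dampens their signal. It was the least abundant member, at 96 and 90 counts with vehicle and 331 and 391 with dexamethasone, or 5.15 and 2.37 against 11.0 and 4.19 CPM. Replicate 1 was the higher library in both groups, by log2 differences of 1.10 with vehicle and 1.39 with dexamethasone, so the groups overlapped. Within each replicate number the dexamethasone library was higher, by 1.09 and 0.81 on the log2 scale. The log2 fold change was 1.03, the third largest in size among the members, but with an SE of 0.628 and a 95% interval of -0.64 to 2.69 (edgeR unadjusted p 0.169). It was 0.18 without dexamethasone replicate 1 and 1.67 without vehicle replicate 1.

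The regulatory subunits of PI3K stabilise the catalytic subunit and tie it to phosphorylated substrates, and here the balance among their genes differed. Pik3r1 (ENSMUSG00000041417), the gene of the alpha subunit, had 3624 and 8310 counts with vehicle and 10957 and 35851 with dexamethasone. In CPM these were 194 and 219 against 365 and 384, or means of 207 ± 17.4 and 375 ± 13.0 (SD, n = 2 each). The gap between the groups was several times the distance between libraries of one group. The log2 fold change was 0.86 (SE 0.133, 95% interval 0.51 to 1.21; edgeR unadjusted p 0.00186, adjusted p 0.195). RefSeq gives 2 promoter windows for Pik3r1, and a count per gene does not separate transcripts from different starts. On the same strand the annotation places Gm36638 over Pik3r1, and reads shared with it could have been split or dropped in counting.

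Pik3r3 (ENSMUSG00000028698), the gene of the gamma subunit, went the other way. It had 2197 and 5224 counts with vehicle and 1890 and 6236 with dexamethasone, or 118 and 138 against 63.0 and 66.8 CPM. Both dexamethasone libraries were far below the lower vehicle library, and the means were 128 ± 14.0 and 64.9 ± 2.64 CPM (SD, n = 2 each). The log2 fold change was -0.98 (SE 0.139, 95% interval -1.35 to -0.61; edgeR unadjusted p 0.00133, adjusted p 0.175), the smallest p among the members. The annotation has a further gene, Gm49337, over Pik3r3 on the same strand, and reads shared with it could have been split or dropped in counting. Pik3r2 (ENSMUSG00000031834), the gene of the beta subunit, had 22.6 and 35.3 CPM with vehicle and 22.7 and 26.8 CPM with dexamethasone. Its groups overlapped and replicate 2 was the higher library in both. The log2 fold change was -0.23 (SE 0.262, 95% interval -0.92 to 0.47).

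Akt1 and Akt2 encode the kinases at the end of the route, of which Akt2 is the form tied most closely to glucose uptake. Akt1 (ENSMUSG00000001729) had 67.7 and 99.6 CPM with vehicle and 64.5 and 77.1 CPM with dexamethasone, a log2 fold change of -0.24 (SE 0.232, 95% interval -0.86 to 0.37). Akt2 (ENSMUSG00000004056) had 70.7 and 101 CPM with vehicle and 77.1 and 106 CPM with dexamethasone, a log2 fold change of 0.090 (SE 0.256, 95% interval -0.59 to 0.77). For both kinases the 2 replicate 2 libraries were the 2 highest, and neither differed between the groups beyond that spread.

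Since the libraries split by replicate number, the difference was also taken within each number, where there is 1 library per group and no test. Irs1 was at -1.31 in number 1 and -1.09 in number 2 on the log2 scale, and Pik3r3 at -0.90 and -1.04. Irs2 was at 1.11 and 1.00, and Pik3r1 at 0.91 and 0.81. Thus each of these 4 had nearly the same value in both numbers. Akt1 was at -0.070 and -0.37 and Pik3r2 at 0.0065 and -0.40, so what difference they had came from replicate 2, and Insr took opposite signs, -0.068 and 0.094.

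**Figure D2:**
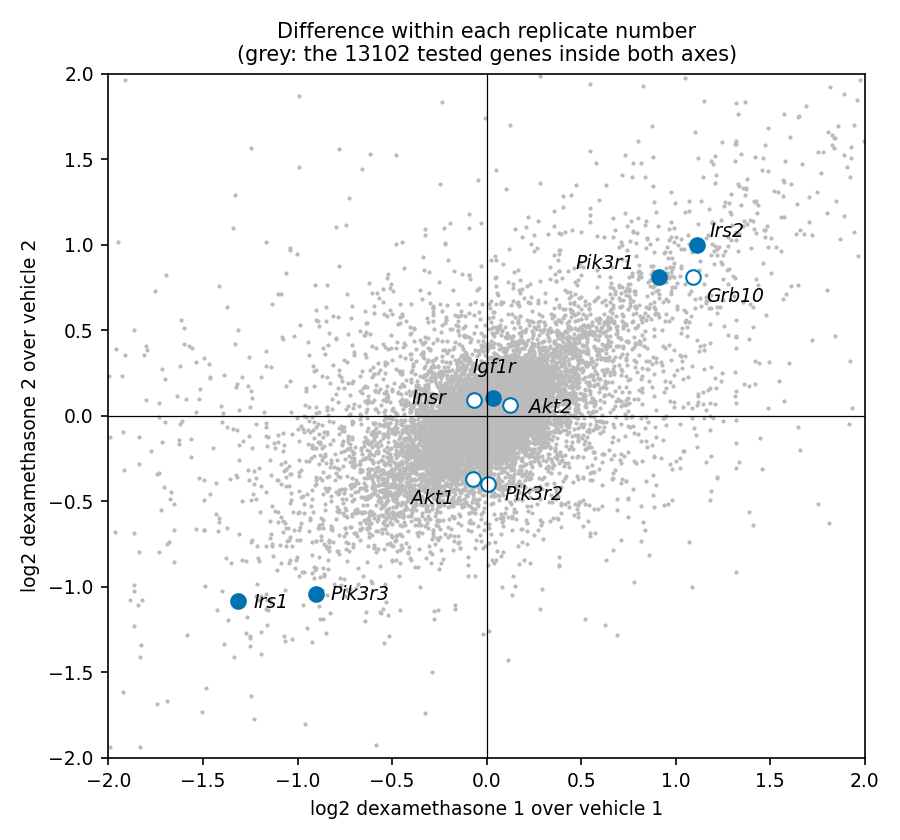
Log2 ratio of dexamethasone to vehicle CPM within replicate number 1 (x axis) and within number 2 (y axis), with 13102 tested genes in grey (183 lie outside the axes) and the 10 members in blue, filled where the groups do not overlap. Irs2 and Pik3r1 lie at the upper right, Irs1 and Pik3r3 at the lower left, and the receptors and Akt2 near the origin.

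The spread by replicate number took in several members. Replicate 1 exceeded replicate 2 in both groups, with no overlap, for Insr and Grb10, and lay below it for Pik3r2, Akt1 and Akt2, against 31.8% and 32.1% of all genes. Akt2 was lower in replicate 1 by 0.52 with vehicle and 0.46 with dexamethasone on the log2 scale, and Insr was higher by 0.38 and 0.21. The myotube markers other than Mymk were higher in the same libraries as Insr and Grb10, and their part in these differences was not tested. Mymk had 175.8 and 173.3 CPM with vehicle and 208.2 and 207.8 CPM with dexamethasone, so it did not separate the replicate numbers. In bulk RNA, fewer cells of a type and less RNA per cell cannot be told apart.

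A ratio of 2 genes within a library does not depend on how libraries are scaled, so 4 such ratios were compared. They were chosen with earlier results of these data known. Irs2 to Irs1 and Pik3r1 to Pik3r2 plus Pik3r3 set a higher gene over lower ones, so they restate the differences above. Counts of Irs2 per count of Irs1 were 0.0476 and 0.0776 with vehicle and 0.256 and 0.330 with dexamethasone. Every dexamethasone library was more than 3 times any vehicle library, and the ratio was 4.78-fold higher on average (log2 difference 2.26; within-group SD 0.50 and 0.26 on the log2 scale, n = 2 each). Counts of Pik3r1 per count of Pik3r2 and Pik3r3 together were 1.38 and 1.27 with vehicle and 4.26 and 4.10 with dexamethasone, 3.16-fold higher (log2 difference 1.66; SD 0.091 and 0.039). Pik3r1 accordingly took 58.1% (95% Wilson interval 56.8% to 59.3%) and 55.9% (55.1% to 56.7%) of the reads of the 3 regulatory subunit genes with vehicle, and 81.0% (80.3% to 81.7%) and 80.4% (80.0% to 80.8%) with dexamethasone. These intervals cover counting error only and treat every read as independent, although the reads carry no molecular identifiers. Those of the 2 vehicle libraries did not overlap each other, so they do not cover the spread between libraries.

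Counts of Akt2 per count of Akt1 were 1.04 and 1.02 with vehicle and 1.20 and 1.38 with dexamethasone, a log2 difference of 0.32 (SD 0.025 and 0.14). The groups did not overlap here, although those of either gene alone did. Counts of Igf1r per count of Insr were 3.58 and 4.71 against 3.85 and 4.74, a log2 difference of 0.057 that was smaller than the SD of either group (0.28 and 0.21). The two-sided exact permutation test over the 4 libraries gave p = 0.333 for the first 3 ratios, the smallest that 2 against 2 allows, and 0.667 for Igf1r to Insr. Adjusted over the 4 ratios the exact p-values were 0.444 and 0.667, so this test could not pass 0.05.

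**Figure D3:**
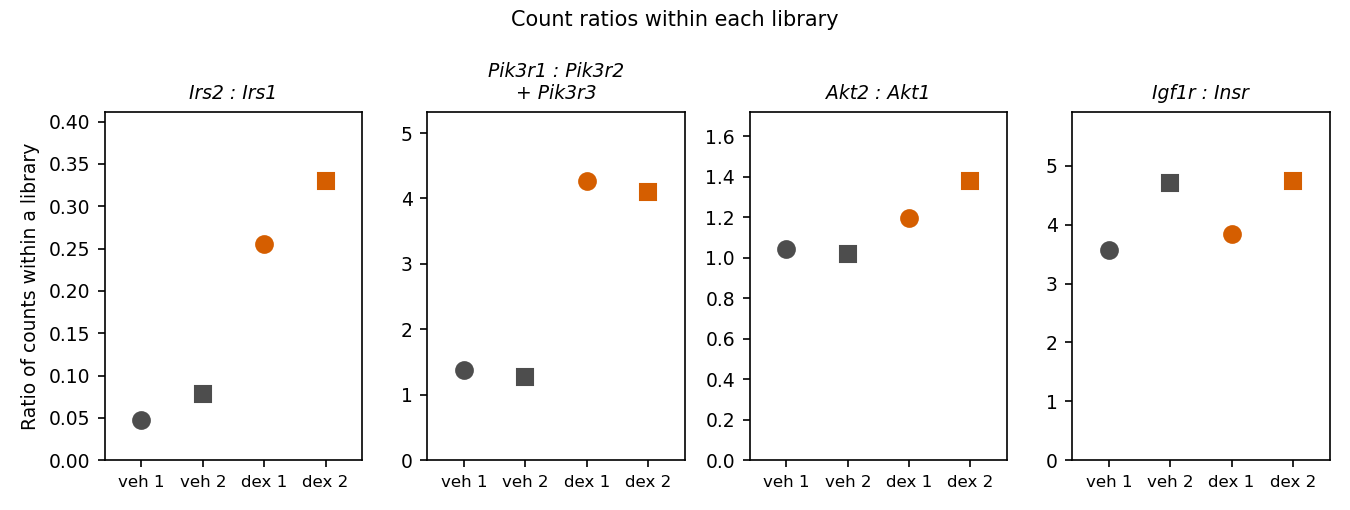
Ratio of raw counts of the named genes within each library, 1 panel per ratio, each axis starting at 0, with vehicle in grey and dexamethasone in orange. Both dexamethasone libraries lie above both vehicle libraries for Irs2 to Irs1, Pik3r1 to Pik3r2 plus Pik3r3, and Akt2 to Akt1, and the groups overlap for Igf1r to Insr.

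Levels of different genes were compared per kb of exon, from the GENCODE M21 exons of each gene. With vehicle, Igf1r came first at 43.8 ± 0.417 CPM per kb (SD, n = 2, as for the others here). Irs1 at 30.1 ± 6.11, Pik3r3 at 24.1 ± 2.64, Pik3r1 at 20.5 ± 1.72 and Akt1 at 20.4 ± 5.49 CPM per kb followed. Insr had 13.2 ± 2.41 and Akt2 12.1 ± 3.04 CPM per kb. Pik3r2 had 6.93 ± 2.15, Irs2 2.63 ± 0.371 and Grb10 0.414 ± 0.216 CPM per kb. The vehicle libraries of the neighbours Irs1 and Pik3r3, Pik3r1 and Akt1, and Insr and Akt2 overlapped, so these pairs had no order beyond their spread.

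With dexamethasone the order differed in its upper part. By exon length Igf1r still came first at 46.0 ± 1.97 CPM per kb, and Pik3r1 was now next at 37.2 ± 1.29, while Irs1 had 13.0 ± 1.21 and Pik3r3 12.2 ± 0.498 CPM per kb. Irs2 and Grb10 were still the last by exon length, at 5.46 ± 0.465 and 0.838 ± 0.533 CPM per kb. Irs1 thus exceeded Irs2 in every library, by exon length as by counts. Whether introns were counted is not given in the sources used here. Per kb from the first to the last base of the gene, 33 of the 45 pairs of members kept their order with vehicle, and Irs1 came first there, at 4.72 CPM per kb against 2.62 for Igf1r. On that scale Pik3r1 came first with dexamethasone, at 4.27 CPM per kb against 2.75 for Igf1r, and Irs2 at 1.45 lay above Insr at 1.15 and Pik3r3 at 0.797. The places of most members in the order thus depended on the length used. With vehicle, Pik3r2 was at place 8 by exon length and 3 by gene span, Pik3r3 at 3 and 7, and Akt1 at 5 and 2. Irs2 and Grb10 kept places 9 and 10 there.

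**Figure D4:**
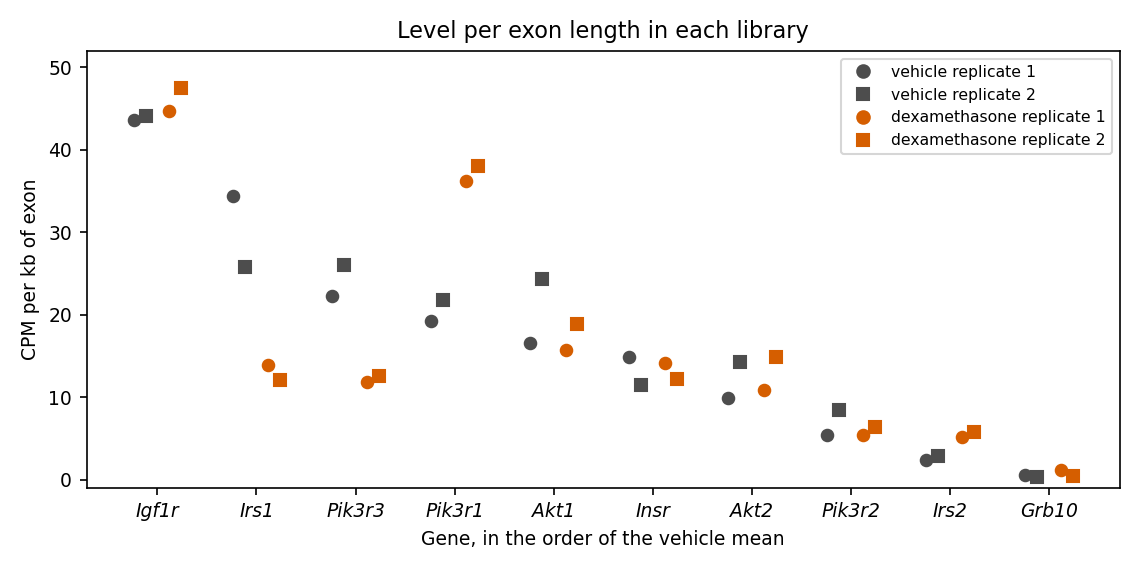
CPM per kb of exon for the 10 genes in each of the 4 libraries, circles for replicate 1 and squares for replicate 2, in the order of the vehicle mean. Igf1r has the highest values in both groups, Pik3r1 lies second with dexamethasone, and Irs2 and Grb10 stay at the low end.

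The rest of the route was read from a list of 64 further genes of ligands, adaptors, PI3K subunits, Akt activators, brakes and Akt targets, of which 51 could be tested. None had an edgeR adjusted p under 0.05. At an unadjusted p under 0.05, 7 were higher and 2 lower, against 4.09% and 1.69% of all genes. DESeq2's Wald test called 1, Foxo3, of the 236 genes it called higher, and none of the 53 it called lower. The groups were apart with dexamethasone higher in 12 of the 51 and lower in 4, against 15.0% and 12.9% of all genes. Their median log2 fold change was -0.029, and the median size regardless of sign was 0.18.

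Among ligands and adaptors, 1 of the 11 tested genes was higher and 2 were lower at an unadjusted p under 0.05, against 4.09% and 1.69% of all genes. Dok1, an adaptor that restrains receptor tyrosine kinases, had 3.16 and 4.03 CPM with vehicle and 6.34 and 8.20 CPM with dexamethasone, a log2 fold change of 1.01 (SE 0.261, edgeR adjusted p 0.477). Grb14, a close relative of Grb10 that also inhibits the insulin receptor, had 4.61 and 4.61 against 2.57 and 2.77 CPM. Its log2 fold change was -0.79 (SE 0.231, edgeR adjusted p 0.593), the opposite sign to Grb10. The other lower gene was Gab1, a docking adaptor, with 132 and 130.0 CPM against 88.6 and 104 CPM (log2 fold change -0.45, SE 0.136; edgeR adjusted p 0.628). The genes of the muscle ligands, Igf1 and Igf2, had log2 fold changes of -0.22 (SE 0.242) and 0.28 (SE 0.514), and their groups overlapped.

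Of the PI3K enzymes, Pik3c2a, the gene of a class II kinase that does not use these regulatory subunits, had 128 and 126 CPM with vehicle and 200.5 and 181 CPM with dexamethasone. Its log2 fold change was 0.58 (SE 0.124, edgeR adjusted p 0.340). Pik3ca, the class I catalytic subunit that pairs with the products of Pik3r1 to Pik3r3, stood at 0.28 (SE 0.217), with overlapping groups. Pik3cb, the gene of an alternative catalytic subunit, was listed at 0 in every library, as were Cbl and Pik3ap1. These 3 genes lie in unbroken runs of 371, 164 and 146 genes on one strand of chromosomes 9 and 19 that are all listed at 0, so they were not measured here. Ins1 and Irs4 were also listed at 0, each without a neighbour at 0 on its strand.

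The 6 genes listed under Akt activation, among them Pdpk1, the kinase that phosphorylates Akt, and Mtor and Rictor, which belong to a complex that also does so, had log2 fold changes between -0.23 and 0.093, with none at an unadjusted p under 0.05. Of the 14 brakes tested, 10 had a log2 fold change above 0, as had 6601 of the 13285 genes, and the median was 0.084. The groups overlapped in 10 of the 14, and in 9579 of the 13285 genes. Dexamethasone was the higher group in the other 4 (15.0% of all genes). Phlpp1 and Inpp5k were higher at an unadjusted p under 0.05 (4.09% of all genes). Phlpp1, a phosphatase that removes an activating phosphate from Akt, had 192 and 211 CPM with vehicle and 333 and 302 CPM with dexamethasone (log2 fold change 0.66, SE 0.133; edgeR adjusted p 0.314).

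The Akt targets held the largest difference of the list, and 3 of the 15 (Foxo3, Tbc1d4 and Tbc1d1) were higher at an unadjusted p under 0.05, against 4.09% of all genes. Foxo3, a transcription factor that Akt keeps inactive and that drives atrophy genes in muscle, had 202 and 244 CPM with vehicle and 658 and 592 CPM with dexamethasone. Its log2 fold change was 1.49 (SE 0.162, edgeR adjusted p 0.123), and it passed without vehicle replicate 2, at 1.64 (edgeR adjusted p 0.0272). Foxo6 went the other way, with 35.8 and 46.9 against 27.1 and 31.3 CPM (log2 fold change -0.50, SE 0.194; edgeR adjusted p 0.884). It was -0.28 without vehicle replicate 2. Tbc1d4, whose product holds glucose transporter vesicles inside the cell until Akt phosphorylates it, had 18.6 and 11.6 CPM with vehicle and 31.7 and 24.7 CPM with dexamethasone. Its log2 fold change was 0.91 (SE 0.289, edgeR adjusted p 0.695), and 0.61 without vehicle replicate 2. The transporter itself, Slc2a4, had overlapping groups (log2 fold change 0.66, SE 0.637).

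**Figure D5:**
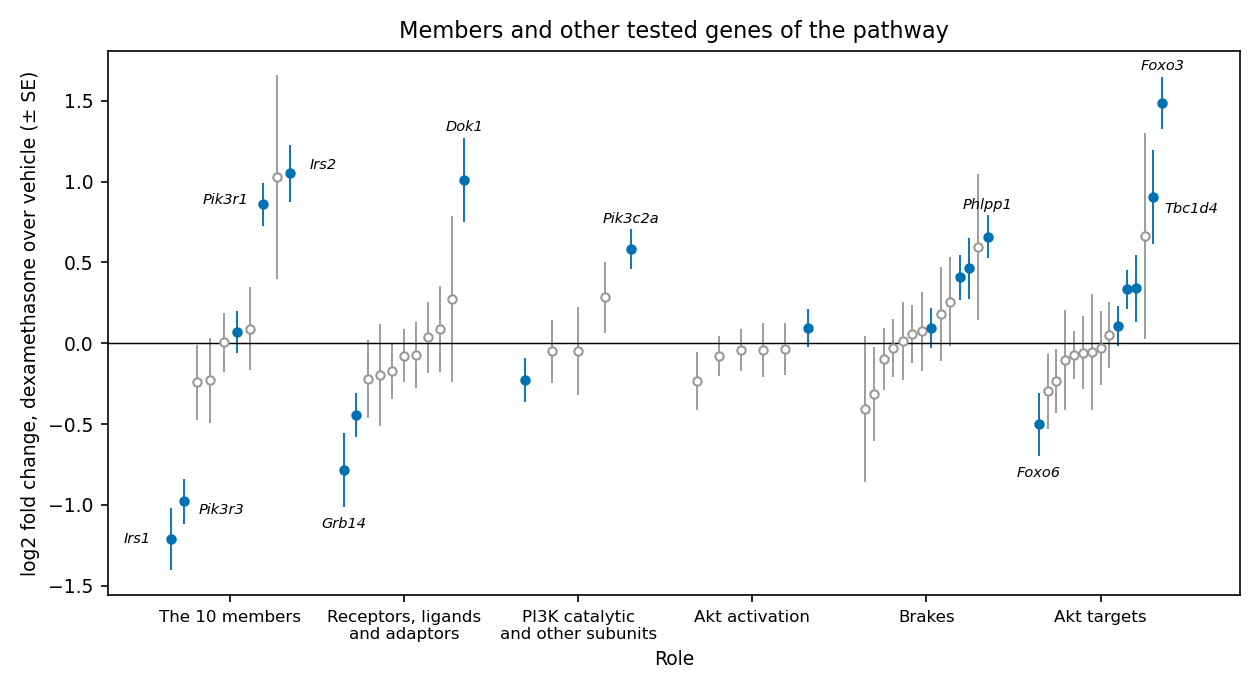
Log2 fold change of dexamethasone over vehicle (points) with its SE (bars) for the 10 members and the 51 other tested genes of the pathway by role, blue and filled where the groups do not overlap, with names for those of them at least 0.5 in size. Irs1 and Pik3r3 are the lowest of all genes drawn and Foxo3 the highest, and the genes that activate Akt lie close to 0.

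Genes with the most similar pattern over the 4 libraries were found by the Euclidean distance between log2 CPM profiles centred on their own mean, among 8072 genes of at least 10 CPM. The nearest to Irs1 were Ndst3 (distance 0.0808), Rerg (0.147) and Ptx3 (0.286). Ndst3 had 84.6 and 64.8 CPM with vehicle and 35.1 and 28.6 CPM with dexamethasone, which follows Irs1 also in the higher level of vehicle replicate 1. The nearest to Irs2 were Myo1d (0.110), Esyt2 (0.117) and Ap2a2 (0.131). The nearest to Pik3r1 were Ip6k2 (0.0209), Ttpal (0.0369) and Zfp1 (0.0547), and those to Pik3r3 were Nkain1 (0.124), Syt17 (0.154) and Plcd3 (0.159). With 4 libraries many genes share a pattern of this kind, and the distances are a description.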

How the data were processed

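The authors deposited one table of raw read counts per gene for 4 libraries. The submitters' processing notes name TopHat2 2.0.13, SAMtools 1.1, HTSeq 0.6.1, DESeq2 1.18.1 and the build mm9, with no roles; annotation, counting mode and strand setting are not given in the sources used here. The labels' protocols name both a stranded total RNA kit and a stranded mRNA kit.

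Of 23333 rows, 51 repeated an earlier symbol and its counts and were used once. Groups and replicate numbers come from the sample titles, and columns were matched by name. Genes were filtered with filterByExpr (minimum count 10, minimum total 15), scaled by TMM and tested with edgeR 4.0.16 in R 4.3.3 (quasi-likelihood, group as the only term, 2 residual and 2.56 prior degrees of freedom), two-sided, with Benjamini-Hochberg adjustment over 13285 genes and a threshold of 0.05. The biological coefficient of variation was 0.245. Log2 CPM per library has a prior count of 2. Library totals ran from 19631435 to 88596296 counts, so precision is lowest in vehicle replicate 1. The fit was tested on data simulated with a smaller biological coefficient of variation, with and without a shift between replicate numbers. Its performance there need not hold at the spread seen here.

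Exon lengths, overlaps and neighbour order came from GENCODE M21 (GRCm38), by Ensembl identifier; since the build differs from mm9, coordinates are given for RefSeq promoter windows only. Named were all 10 members, pathway genes that passed, did not overlap with a log2 fold change of at least 0.5 in size, or were at 0 throughout, and the 3 nearest genes in pattern of each such member. Gab1, Igf1, Igf2, Pik3ca, Inpp5k, Tbc1d1, Slc2a4, Pdpk1, Mtor and Rictor were named outside that rule, after their values were seen. The members, lists and ratios were chosen with earlier results of these data known. Alternatives were DESeq2 size factors, library size only, no filter, the DESeq2 1.42.0 Wald test, a replicate block, and leaving out each library.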

Additional observations from a re-analysis of the deposited data

How the results depend on the processing

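How many genes were called differed by setting. Over all genes edgeR gave 5 higher and 0 lower (543 and 225 by unadjusted p under 0.05), 23 higher with no filter on counts, while the Wald test in DESeq2 gave 236 higher, 53 lower. Among the 10 members edgeR called 0 and the Wald test 2 in each direction; among the other pathway genes it called 1 higher. Fits without one library called 4 to 84 genes higher and 0 to 109 lower over all genes, both highest without vehicle replicate 2, with 0 to 1 members lower and 0 to 1 pathway genes higher. The cause was not tested.

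The labels do not say that a replicate number marks a shared culture or day, and 2 pairs cannot establish it, though replicate differences correlated between the groups across 13285 genes (r = 0.734), which are not independent. With the replicate block, 913 genes were called higher and 768 lower, 3 members higher and 2 lower, and 11 pathway genes higher and 4 lower. The members were Irs1 (edgeR adjusted p 0.000235), Pik3r3 (0.000323), Pik3r1 (0.000336), Irs2 (0.000399) and Grb10 (0.00632), with 1 residual degree of freedom left.

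Of 90 fold changes of members under alternatives, 71 kept direction and side of the threshold, 10 passed it and 9 changed sign, all 9 among members near 0. Insr stood at -0.0068 with DESeq2 size factors and with the Wald test, -0.028 with library size only, and from -0.16 (without vehicle replicate 2) to 0.21 in fits without one library, with -0.10 without dexamethasone replicate 1. In such fits Pik3r2 ranged from -0.51 to 0.14 and Akt1 from -0.49 to 0.072, both above 0 without vehicle replicate 2, and Akt2 from -0.16 (without dexamethasone replicate 2) to 0.38, with -0.14 without vehicle replicate 1. The range of adjusted p over the alternatives was 7.09e-05 to 0.438 for Irs1, 0.000399 to 0.611 for Irs2, 0.000336 to 0.715 for Pik3r1 and 0.00029 to 0.837 for Pik3r3, each always in 1 direction. When a library was left out, the log2 difference ran from 1.90 to 2.61 for Irs2 to Irs1, 1.60 to 1.72 for Pik3r1 to Pik3r2 plus Pik3r3, 0.21 to 0.42 for Akt2 to Akt1 and -0.14 to 0.25 for Igf1r to Insr. The 12 nearest genes were the same with library size only. Scaling shifts all genes of a library nearly alike, so it could hardly change these distances and is no check on them.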
